A study of Arabidopsis thaliana with 4 samples.

Results

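A microarray probe is normally tied to an annotated gene, but part of the Arabidopsis thaliana array used here carries other names: bare positions on a chromosome, consensus sequences assembled from cDNA reads, and single sequence records. These are the probes of an array on which transcripts outside the annotated gene set can be seen. The members described here were chosen by the scanner software's detection flags: they were the non-control probes whose name was not an Arabidopsis gene identifier and whose spots were marked well above background on all 4 arrays in at least 1 of the 2 genotypes. Of 37478 non-control probes, 11242 (30.0%) had no gene identifier, and 1852 of those (16.5%) were members. Of the 26236 probes with a gene identifier, 19918 (75.9%) met the same requirement.

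Each array compared whole Columbia-0 seedlings, 14 days old and untreated, that carried 35S:AtERF4-HA with seedlings of the same age that carried 35S:NLS-GFP-HA, the control. ERF4 belongs to the class II ERF proteins, transcriptional repressors with an EAR motif that act in ethylene responses, and the study's title names leaf senescence as its subject. Both transgenes were driven by 35S, a promoter active in most plant tissues, and both carried an HA tag, so the control also expressed a foreign nuclear protein. The 4 arrays were 4 biological replicates, with many plants of both genotypes grown on 1 plate per replicate, on agar with 0.5% sucrose at 23 degrees Celsius under days of 16 h light and nights of 8 h. The sources used here do not say how many independent transgenic lines were used.

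Sequence records of this type have several known origins. A TC number is a tentative consensus, built by aligning expressed sequence tags, which are single reads of cDNA clones, so its source was once copied from RNA. Most of the accession prefixes on this array, such as AV, BP and BU, belong to such single reads. A position name marks a place on the chromosome, in the orientation in which its 2 ends are written. Signal there can come from an unannotated gene, a longer end of a neighbouring gene, a noncoding or antisense RNA, a pseudogene, or another copy of the same sequence. The sources used here name no genome build for the positions, and the gene table used for names is of assembly TAIR10.1, so positions are given as the array names them, without exon, intron or UTR. None of 723 names other than positions was found in that table, and these probes have no gene name here.

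Directions are those of the dye labels, as AtERF4-HA over control, with AtERF4-HA in Cy3 on arrays 1 and 2 and in Cy5 on arrays 3 and 4. The titles name the same order, but the authors' deposited value table held natural log ratios that ran the other way by those dyes on all 4 arrays. Its columns correlated with the ratios in the labelled direction at -0.66, -0.77, -0.50 and -0.78. Were the labels of the dyes exchanged, every sign below would turn. The ERF4 gene probe itself was brighter in AtERF4-HA, with log2 ratios of 0.98, 0.87, 0.82 and 1.04 on arrays 1 to 4 (0.93 ± 0.07, SE, n = 4 arrays, limma adjusted p = 0.0029). The seedling label was checked on probes for the leaf genes RBCS1A, LHCB1.3 and RCA and the root genes CASP1 and AGP3, all well above background on all 4 arrays in both genotypes. AGP3 (1.31 ± 0.20), CASP1 (0.47 ± 0.08) and RCA (0.32 ± 0.06) were higher in AtERF4-HA (limma adjusted p = 0.015, 0.022 and 0.020), RCA on arrays 3 and 4 only. For RBCS1A and LHCB1.3 the adjusted p was 0.096 and 0.54. Of the reference genes, ACT2 was lower (-0.34 ± 0.06, adjusted p = 0.023) and EF1A had an adjusted p of 0.71. The median spot had a green signal of 122 to 140 and a red signal of 166 to 222, and the median local background was 58 to 60. Ratios of the kept probes correlated at 0.70 to 0.86 between pairs of arrays.

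Most of the probes without an identifier showed little or no signal, and those that did were mostly seen in both genotypes. Among members, 1538 were well above background on all 4 arrays in both genotypes, 183 in AtERF4-HA only and 131 in control only. None was saturated. The rule used these flags, so the split is a description. None of 153 negative control spots met the same requirement, although 1 to 4 of them were marked in a single channel of a single array. Probes just outside the rule, marked on at most 3 arrays in either genotype, numbered 307. Their background-subtracted signal on the weakest array, taken in the better genotype, had a median of 11.5 intensity units. It was 19.2 for the 314 members inside the rule in 1 genotype only and 56.4 for members seen in both. Another 1453 probes were marked on 1 or 2 arrays at most, and 7630 on none.

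Detection differed widely between kinds of name. Of 407 probes named for a TC number, 229 (56.3%) were members, against 1129 of 8812 named for a position (12.8%). The shares were 94 of 334 (28.1%) for NP numbers and 396 of 1679 (23.6%) for sequence accessions, and 4 of 10 probes that carried only a probe name were members. Within the accessions the share differed between prefixes. It was 133 of 723 for AV (18.4%), 71 of 416 for BP (17.1%) and 15 of 95 for AU (15.8%). For BX it was 63 of 152 (41.4%) and for BU 21 of 30 (70.0%). Some prefixes with few probes lay higher, such as CK with 5 of 6 (83.3%). TC numbers, the consensus sequences of cDNA reads, thus lay above bare positions and below the probes with a gene identifier.

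**Figure D1:**
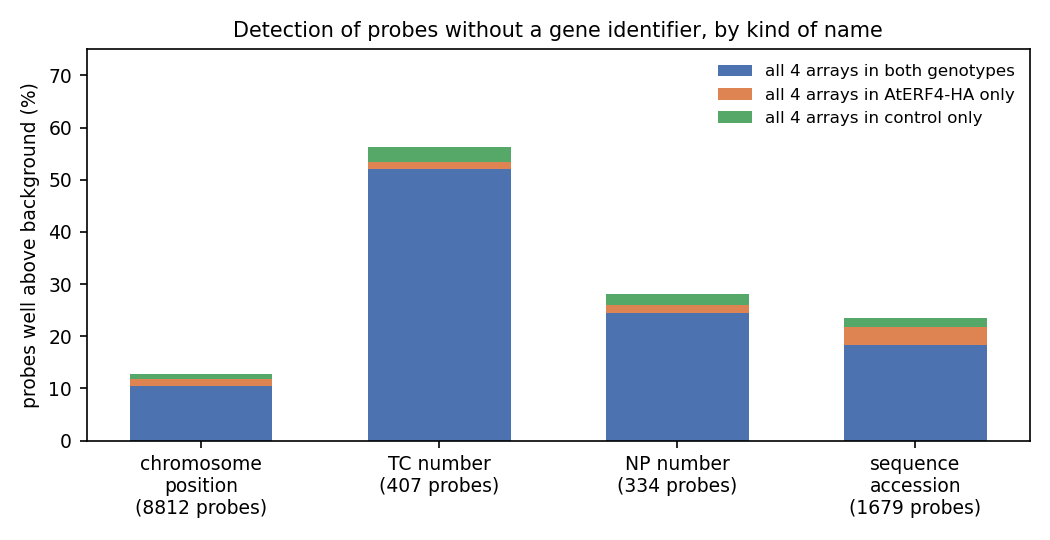
Share of probes without a gene identifier that were well above background on all 4 arrays (y axis, percent of the probes of that kind on the array), stacked by the genotype in which they were detected, for the 4 main kinds of name. TC numbers reach 56.3% and positions 12.8%, and in every kind the share seen in both genotypes is the largest block.

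Positions were detected at similar rates on the 5 chromosomes and in both orientations. The shares were 14.5%, 15.2%, 11.3%, 11.9% and 11.3% on chromosomes 1 to 5, with 314, 217, 201, 149 and 248 members. Without the dense stretch described below, the share on chromosome 2 was 156 of 1325 (11.8%). Forward names gave 578 members of 4666 (12.4%) and reverse names 551 of 4146 (13.3%). Most position names, 8696 of 8812, spanned 60 bases, and 97 spanned more. Of those 97 longer names 32 (33.0%) were members, against 12.5% of the names of 60 bases, and 11 of 19 names under 60 bases were members. All 32 longer and all 11 shorter members were detected in both genotypes.

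The members as a whole shifted little between the genotypes. Their median log2 ratio was 0.02, from -2.14 to 1.27, beside a median of 0.01 for probes with a gene identifier. In the limma fit across all 21768 kept probes, 121 members had an adjusted p under 0.05, of which 74 were higher and 47 lower in AtERF4-HA. That is 6.53% of the members, where 23.1% of all kept probes passed the same threshold (12.3% higher and 10.8% lower) and 24.6% of the probes with a gene identifier. The authors' deposited value table, with its sign turned to AtERF4-HA over control and fitted the same way, gave 805 members higher and 247 lower. This table was not centred, and with it gene probes gave 7892 higher and 3071 lower. The split between the directions thus moved with the table in both sets of probes. Among called members, 1 was higher and 6 were lower by 2-fold or more, where 0.85% and 2.52% of all kept probes were. Falls past 2-fold without a call also occurred. The lowest ratio was -1.54 among members detected in control only and -1.18 among NP numbers, and neither was called. The count of all called members moved with the arrays used: it was 5 without array 1, 7 without array 2, 437 without array 3 and 99 without array 4. With the dye term in the fit, leaving out array 1 or array 2 left the residual to the difference between arrays 3 and 4 alone. A call lost in those fits thus need not mean a smaller ratio.

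The share called differed with the brightness of the probes and with the treatment of background. Members had a median signal of 8.08 on the log2 scale and gene probes one of 10.21. Among members seen in both genotypes, 120 of 1538 (7.80%) were called, against 25.4% of such gene probes. None of 483 members with a mean log2 signal under 8 was called, and none of 771 gene probes there. Between 8 and 9 the shares called were 3.30% of 696 members and 9.43% of gene probes. Between 9 and 10 they were 22.8% of 206 members and 24.0%, between 10 and 11 they were 32.6% of 95 members and 28.8%, and from 11 upward 32.8% of 58 members and 35.8%. From 9 upward the members' share thus lay near that of gene probes, on either side of it. Between 8 and 9 it was lower, and the members there were also dimmer (median log2 signal 8.29 against 8.51). With background-subtracted signals in place of the normexp correction, 42.8% of members and 42.3% of gene probes were called, and 146 of the 483 dimmest members. No test of the difference between members and gene probes was made.

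**Figure D2:**
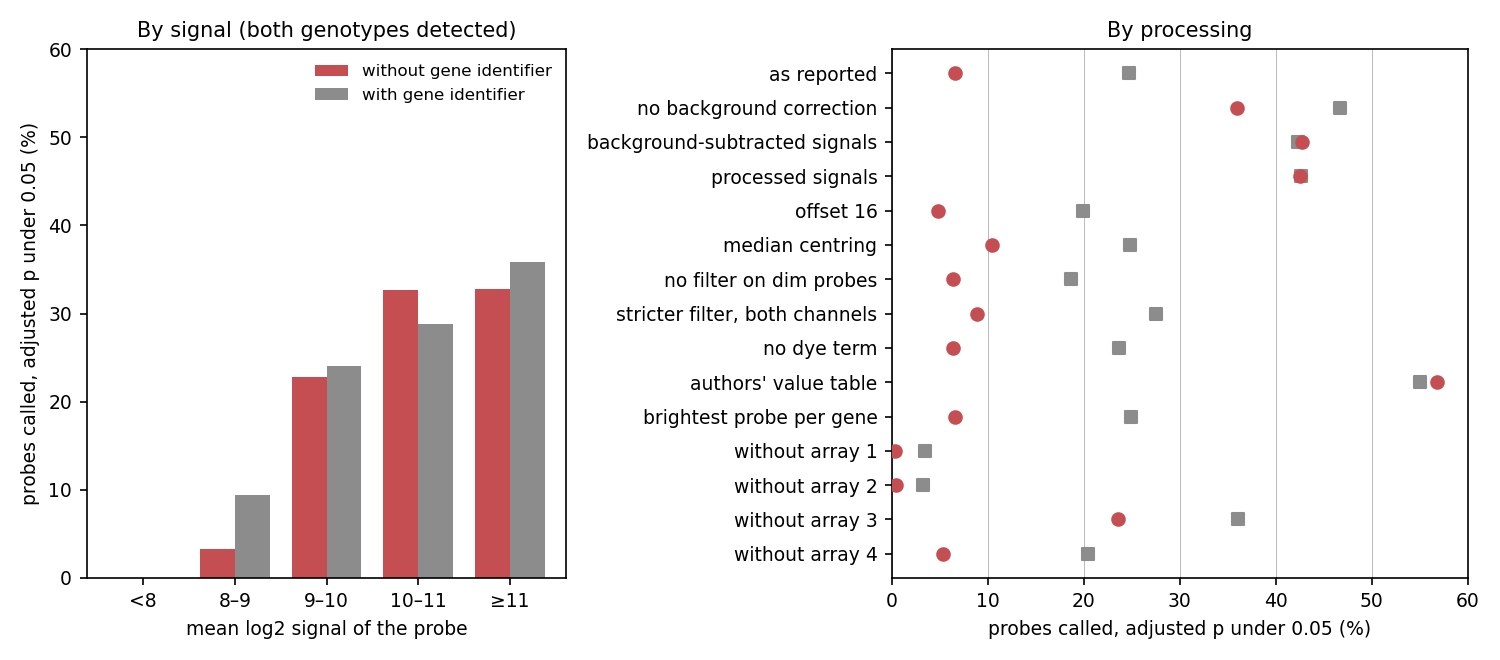
Share of probes with an adjusted p under 0.05 in limma (percent), for members and for kept probes with a gene identifier. On the left it is split by mean log2 signal for probes detected in both genotypes: the members' share goes from 0% under 8 to 32.8% from 11 upward. On the right it is given for each processing alternative over all members: members lie far below gene probes as reported (6.53% against 24.6%) and level with them after background subtraction (42.8% against 42.3%).

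TC probes were called most often among the main kinds. Of 229 members with a TC number, 14 were higher and 15 lower (12.7%), where 23.1% of all kept probes were called. Positions gave 41 higher and 31 lower of 1129 (6.38%), NP numbers 4 higher and none lower of 94, and accessions 15 higher and 1 lower of 396 (4.04%), all below the share over all kept probes. The median log2 signal was 8.66 for TC members, 8.04 for positions, 8.28 for NP numbers and 8.00 for accessions. After background subtraction the order was different, with 41.0% of TC probes and 45.2% of positions called. Without array 1 the counts were 2 for TC probes and 3 for positions, all lower. Without array 3 they were 31 higher and 41 lower for TC probes and 155 higher and 107 lower for positions.

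The largest fall of any member was at chr5:17986282-17986341, a forward name. Its control signals were 11265, 4972, 4006 and 3242 intensity units on arrays 1 to 4, and its AtERF4-HA signals were 602.0, 742.0, 1537 and 1344. The control was the brighter genotype on every array in both dye orientations. The log2 ratios were -2.53, -1.77, -2.00 and -2.26, a fall of 4.41-fold (-2.14 ± 0.14, SE, n = 4 arrays, limma adjusted p = 0.0025). This position was called under all 15 settings run, with values from -2.42 to -1.95.

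The next fall, at chr3:16524216-16524275 in reverse orientation, left an AtERF4-HA signal below that of the median spot of its channel on every array. Control signals were 2124, 923.0, 972.0 and 423.0 units, and AtERF4-HA signals 121.5, 114.0, 124.0 and 133.0, over a background near 59. Its log2 ratios were -1.96, -2.35, -1.11 and -2.27 (-1.92 ± 0.20, SE, n = 4 arrays, limma adjusted p = 0.0065). All 4 lay below 0, with array 3 nearest to it. The size depended on the background: with background-subtracted signals it was -3.88, and the call was lost without array 1 or without array 2 (highest adjusted p = 0.063).

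A comparable pattern was seen at chr2:15208419-15208478, reverse, the 1 called member that was detected in control only. Its control signals were 1116, 691.0, 234.5 and 144.5 units, and the AtERF4-HA signals 82.5, 84.0, 71.0 and 73.5. In AtERF4-HA it was well above background on 1 of 4 arrays. The ratios were -1.47, -2.48, -0.20 and -1.12 (-1.32 ± 0.23, SE, n = 4 arrays), all below 0 with array 3 nearest to it. The rule chose this member through its detection in control, so these values are a description.

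Transcripts at 3 longer position names were among the 12 largest falls. The forward name chr1:28105277-28105407, 131 bases long, had log2 ratios of -0.89, -0.88, -1.03 and -1.33 (-1.03 ± 0.07, SE, n = 4 arrays, limma adjusted p = 0.0028). The reverse name chr5:5580340-5580689, of 350 bases, had ratios of -0.89, -0.84, -0.75 and -0.73 (-0.80 ± 0.05, SE, n = 4 arrays, limma adjusted p = 0.0025). Both of these positions lay below 0 on all 4 arrays and were called under every setting run. The forward name chr4:11341648-11341852, of 205 bases, had ratios of -0.59, -0.73, -0.33 and -0.96 (-0.65 ± 0.11, limma adjusted p = 0.021). Over all 32 members with names longer than 60 bases, 2 were higher and 4 lower (18.8%, where the members as a whole gave 6.53% and all kept probes 23.1%), 2 without array 1, 2 without array 2 and 10 without array 3. These longer names were also brighter, with a median log2 signal of 9.16 against 8.02 for names of 60 bases. Among the other longer names, chr2:7712464-7712579 was also lower (-0.48 ± 0.08, limma adjusted p = 0.020), while chr1:29422619-29423381 (0.23 ± 0.05, adjusted p = 0.041) and the reverse name chr5:635444-635583 (0.24 ± 0.05, adjusted p = 0.037) were higher.

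TC266366 and TC273526 gave the largest falls outside the positions. For TC266366 the log2 ratios were -1.54, -2.17, -1.23 and -1.81 (-1.69 ± 0.15, SE, n = 4 arrays, limma adjusted p = 0.0041). For TC273526 they were -1.50, -1.22, -0.93 and -1.46 (-1.28 ± 0.11, SE, n = 4 arrays, limma adjusted p = 0.0040). Every array of both showed less signal in AtERF4-HA, and both were called under every setting run. The remaining TC probes among the 12 largest falls had ratios of -0.83 ± 0.20 and -0.71 ± 0.18 (adjusted p = 0.042 and 0.049), each with array 3 nearest to 0.

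The other falls named by size were positions with 60 bases. At chr3:20384688-20384747, reverse, array 4 stood at -1.52 and the others at -0.45, -0.69 and -0.53 (-0.80 ± 0.17, limma adjusted p = 0.034). At chr5:2356356-2356415, reverse, the ratios were -0.62, -0.68, -0.65 and -1.01 (-0.74 ± 0.08, limma adjusted p = 0.0065). In both the fall was on all 4 arrays and array 4 was lowest. Of the 12 largest falls, 5 were called in every setting and 7 lost the call in at least 1 of the fits that left out array 1 or array 2.

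The rises were smaller than the falls. The only rise past 2-fold was BU917441, a sequence accession, whose AtERF4-HA signals were 593.0, 707.0, 1360 and 1703 units and control signals 406.5, 418.0, 226.0 and 292.0. Its log2 ratios were 1.23, 1.55, 0.64 and 1.67, or 2.42-fold (1.27 ± 0.18, SE, n = 4 arrays, limma adjusted p = 0.013). AtERF4-HA was the brighter genotype on all 4 arrays, and array 3 had less than the others. Without array 1 or array 2 the call was lost (highest adjusted p = 0.097), with fitted ratios of 1.35 and 1.19.

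Among positions the largest rise was at chr5:22170392-22170451, forward, with log2 ratios of 0.45, 1.16, 0.43 and 1.32 (0.84 ± 0.19, SE, n = 4 arrays, limma adjusted p = 0.038). At chr5:9485950-9486009 they were 0.58, 0.93, 0.10 and 0.98 (0.65 ± 0.16, limma adjusted p = 0.048). At chr2:11167668-11167727 they were 0.51, 0.84, 0.18 and 1.01 (0.64 ± 0.15, limma adjusted p = 0.044). These 3 shared a pattern over arrays: arrays 2 and 4 were high and array 3 low. At chr3:22914105-22914164, reverse, arrays 1 and 2 were highest, at 0.91 and 0.82, and array 3 stood at 0.09 (0.61 ± 0.10, limma adjusted p = 0.018).

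The second sequence accession among the rises, T20497, had log2 ratios of 1.41, 0.76, 0.08 and 0.38 (0.66 ± 0.13, SE, n = 4 arrays, limma adjusted p = 0.026), with both arrays that carried AtERF4-HA in Cy3 above both that carried it in Cy5. The 3 TC numbers and 2 NP numbers among the 12 largest rises had ratios of 0.62 to 0.64 and 0.60 to 0.62. The steadiest of these was a TC number with 0.70, 0.57, 0.68 and 0.61 on the 4 arrays (0.64 ± 0.06, limma adjusted p = 0.0043). None of the 12 rises was called in every setting, and all 12 lost the call in at least 1 of the fits that left out array 1 or array 2.

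**Figure D3:**
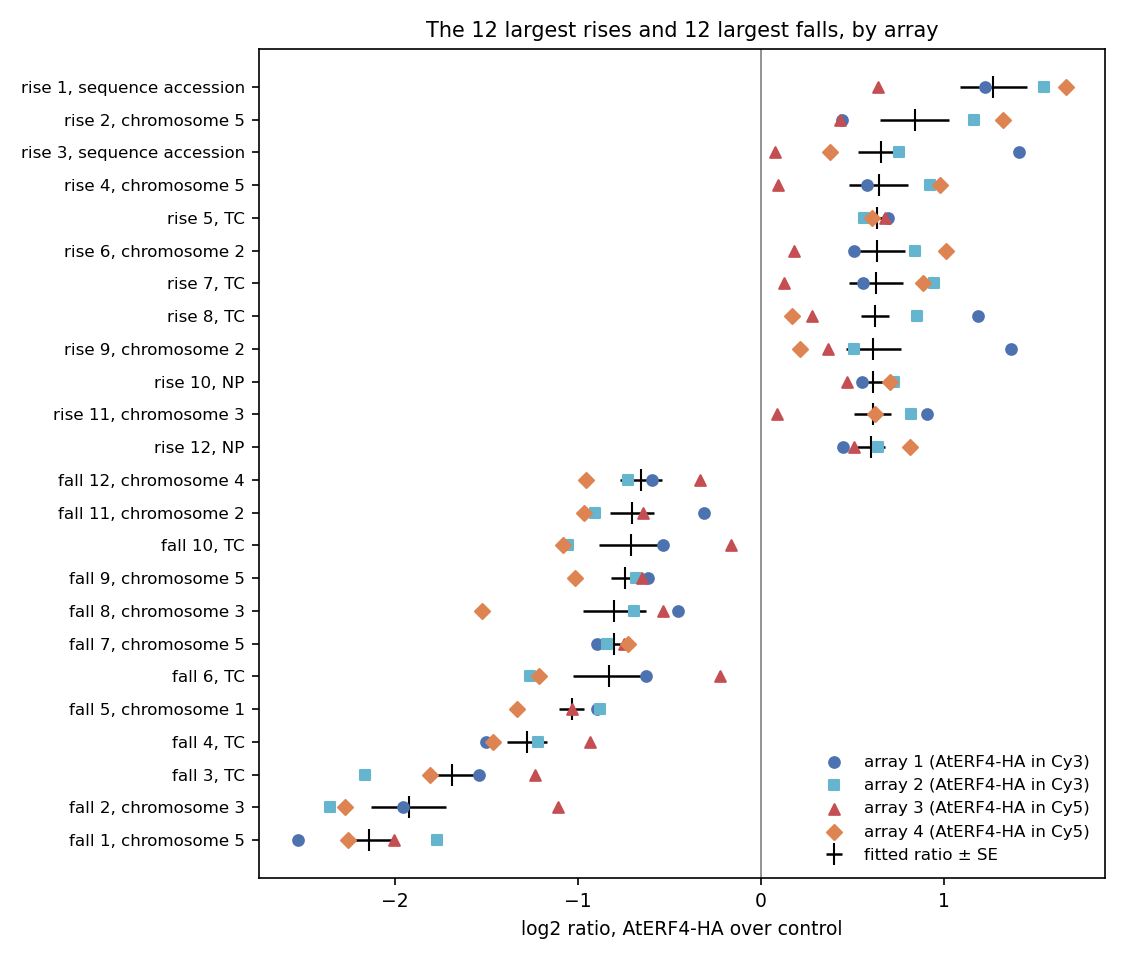
Log2 ratio of AtERF4-HA over control (x axis) on each of the 4 arrays, with the fitted ratio and its SE, for the 12 largest rises and 12 largest falls among called members detected in both genotypes with 1 sign on all arrays. The falls reach -2.14 and the rises 1.27, and array 3 (triangles) often lies nearest to 0.

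The spread between arrays was uneven over the members. Array 3 had the smallest absolute log2 ratio of the 4 for 1365 of 1852 members, and array 4 the largest for 957. Among 19916 gene probes these counts were 9486 and 8027, both smaller shares than in members. The median absolute ratios of all members were 0.06, 0.16, 0.02 and 0.20 on arrays 1 to 4, and those of the 121 called members 0.50, 0.56, 0.23 and 0.58. Gene probes showed the same order at 0.17, 0.21, 0.11 and 0.23. The dye effect was larger than the fitted ratio in 591 members, in 3 of the called ones and in 5331 gene probes.

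The brightest members changed modestly. Among the 5 members of highest signal was 1 position, chr5:10186377-10186436 in forward orientation, which had ratios of 0.30, 0.33, 0.41 and 0.64 (0.42 ± 0.06, SE, n = 4 arrays, limma adjusted p = 0.014). An overlapping probe in reverse orientation, chr5:10186331-10186390, shared 14 bases with it and had ratios of 0.14, 0.03, 0.03 and 0.19 (0.09 ± 0.06, limma adjusted p = 0.29). The arrays of the forward name lay above those of the reverse name. A test of the difference between the 2 orientations was not made. Of the other 4 brightest members, an NP number (0.60 ± 0.08, limma adjusted p = 0.0099) and a TC number (0.37 ± 0.07, adjusted p = 0.023) were higher, and 2 TC numbers did not pass (0.18 ± 0.08 and 0.42 ± 0.12, adjusted p = 0.18 and 0.068).

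A few places gave signal on both strands. The array held 202 pairs of position probes that overlapped in opposite orientation. Both were members in 5 pairs, 1 of them in 27 and neither in 170, where 12.8% of all position probes were members. Whether 5 pairs differ from the number that this share would give was not tested. Besides the pair above, the 5 pairs lay at chr2:3379119-3379190, chr4:11795179-11795253 and, as a chain of 3 probes, chr5:20813218-20813318. On chromosome 4 the reverse probe had a ratio of 0.12 ± 0.07 and the forward probe one of -0.24 ± 0.11 (limma adjusted p = 0.26 and 0.17), and no probe of these 3 places passed the threshold.

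Members that lay close together on a chromosome tended to have ratios of the same sign. Outside the stretch of chromosome 2 described next, 75 pairs of neighbouring members lay within 1000 bases of each other in the same orientation. Of these, 60 had ratios of 1 sign, and the correlation of the 2 ratios across the 75 pairs was 0.72, as a description of pairs that share arrays, background and possibly a transcript. In opposite orientation 6 of 10 pairs shared a sign. No pair had both members called. At chr1:23837236-23837295 and chr1:23837444-23837503, both reverse and 148 bases apart, the ratios were -0.41 ± 0.08 and -0.32 ± 0.09 (limma adjusted p = 0.031 and 0.059). At chr4:18276787-18276846 and chr4:18277070-18277129, both reverse, they were 0.41 ± 0.08 and 0.28 ± 0.09 (adjusted p = 0.024 and 0.088). At chr5:8972527-8972586 and chr5:8972879-8972938 the signs differed, at -0.12 ± 0.06 and 0.33 ± 0.07 (adjusted p = 0.22 and 0.031).

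One stretch of chromosome 2 stood out for the number of members. In windows of 200000 bases, 2 adjacent ones, from 3200001 to 3600000, held 61 members of 100 position probes (61.0%), against 12.3% of the positions elsewhere. The median over the 453 windows with a member was 2 members. The next window by count, on chromosome 1 from 23800001 to 24000000, held 20 of 89. The members of the stretch ran from position 3244562 to 3489516 with 40 forward and 21 reverse names. The stretch was chosen for its count after the positions had been seen. The part of chromosome 2 near its centromere is known to hold a large nuclear copy of the mitochondrial genome. Whether these probes lie in that copy could not be checked without a genome sequence, so RNA from a nuclear copy and RNA of the mitochondrion cannot be told apart here.

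In this stretch the ratios leaned towards the control. Of its 47 members seen in both genotypes, 39 lay below 0 and the median log2 ratio was -0.24. The medians of these 47 on arrays 1 to 4 were -0.07, -0.20, -0.06 and -0.48, all below 0 and lowest on array 4. Their median was -0.38 without array 3 and -0.13 without array 4. The other 14 were detected in control only, so the rule itself favoured a ratio below 0 for them, and none was detected in AtERF4-HA only. Over all 61 members the median was -0.20 and 53 lay below 0, where the median of the other position members was 0.03. Few of the 61 reached the threshold: 4 were lower and 1 higher (8.20%, where 23.1% of all kept probes were called). Without array 1 none was called, without array 2 only 1 higher, and without array 3 there were 29 lower. With background-subtracted signals the median of the 61 was -0.76 and 49 were lower and 1 higher, and the authors' deposited value table gave 46 lower and 4 higher.

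The called members of the stretch differed in how their ratios lay over the arrays. At chr2:3437411-3437470 the ratios were -0.31, -0.90, -0.64 and -0.97 (-0.71 ± 0.12, SE, n = 4 arrays, limma adjusted p = 0.019). At chr2:3298991-3299050 the fall came from arrays 3 and 4, with ratios of -0.00, -0.04, -0.68 and -0.83 (-0.39 ± 0.06, adjusted p = 0.013). At chr2:3386825-3386884, the 1 rise, array 1 stood at 1.37 and the others at 0.51, 0.37 and 0.21 (0.62 ± 0.15, adjusted p = 0.045). The lowest ratio of the stretch, -0.93 ± 0.25 at chr2:3489457-3489516, did not pass (adjusted p = 0.060), with arrays 2 and 4 at -1.38 and -1.54 and arrays 1 and 3 at -0.50 and -0.27.

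Of the 7 members of the stretch with a mean log2 signal of 10 or more, 3 had a sign that followed the dye orientation and 4 had 1 sign on all arrays. At chr2:3333828-3333887 the ratios were 0.48, 0.39, -0.48 and -0.40, and at chr2:3337797-3337856 they were 0.44, 0.31, -0.35 and -0.37. In both the fitted ratio was near 0 (-0.00 ± 0.05 and 0.01 ± 0.06, limma adjusted p = 0.98 and 0.95). Over these 7 the array medians were 0.11, 0.25, -0.48 and -0.42. For the other 54 they were -0.05, -0.27, -0.04 and -0.44. In 9 of the 61 members the dye effect was larger than the fitted ratio.

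**Figure D4:**
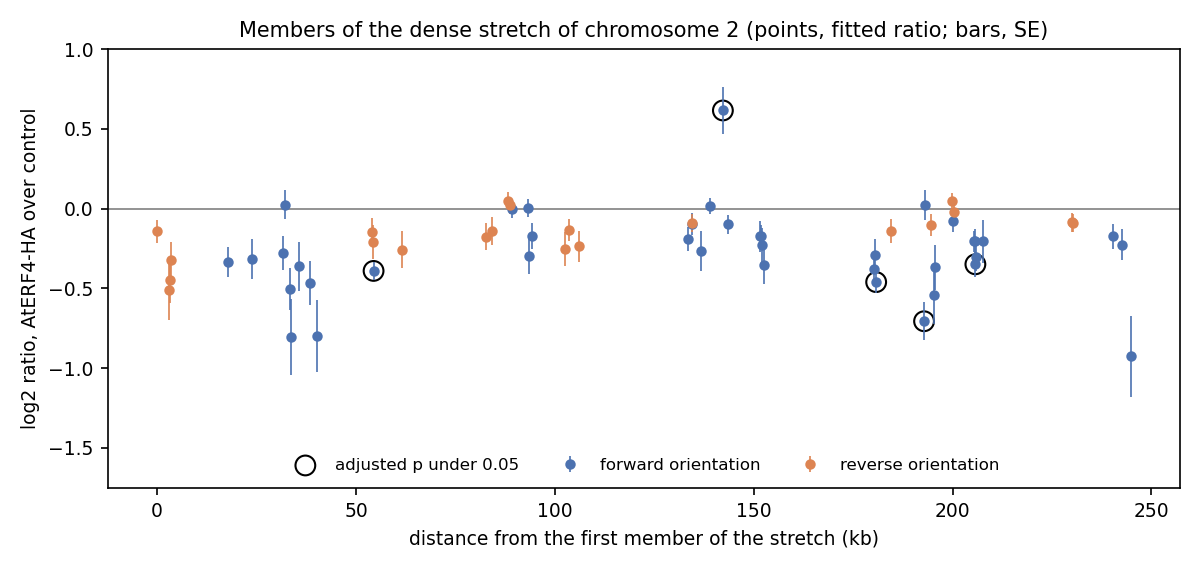
Fitted log2 ratio of AtERF4-HA over control with its SE (y axis) for the 61 members of the dense stretch of chromosome 2, by distance from the first member (x axis, kb). Points below 0 are 53 of 61, of which 14 were detected in control only, and the ringed points, 4 lower and 1 higher, have an adjusted p under 0.05.

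Probes with gene identifiers from the same part of the numbering and from the mitochondrial genome are given beside these values. The 38 kept probes of genes AT2G076xx and AT2G077xx, a numbering block chosen after the stretch was seen, had a median of -0.14, with 31 below 0, 2 called higher and 2 lower. That is 10.5% called, where 23.1% of all kept probes were. The array medians of the block were -0.01, -0.16, -0.06 and -0.43, lowest on array 4. The 4 kept probes of mitochondrial genes had a median of -0.22, all below 0, and 2 were called lower, where 10.8% of all kept probes were. The array medians of these 4 were -0.03, -0.36, -0.26 and -0.43. The part of mitochondrial RNA in the values of the stretch was not tested.

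For members seen in 1 genotype only, the other genotype was rarely blank. Of 183 members detected in AtERF4-HA only, 97 were marked in the control on 3 arrays, 75 on 1 or 2 and 11 on none. Of 131 detected in control only, AtERF4-HA was marked on 3 arrays for 56, on 1 or 2 for 55 and on none for 20. For a member that was not well above background on any array of the other genotype, a bound was computed. It took, per array, the higher of the lowest signal well above background and the dim probe's own signal. In 30 of the 31 such members the own signal was the higher, so the value is the fitted fold itself and not a lower limit. The largest such fold in control only was 1.56-fold, for a sequence accession with ratios of -0.24, -1.34, -0.07 and -0.92 (limma adjusted p = 0.10). The largest for a position was 1.24-fold, at chr5:6802477-6802536, reverse (adjusted p = 0.13). In AtERF4-HA only the largest fold of this kind was 1.21-fold. Of all 314 members seen in 1 genotype only, 1 was called.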

How the data were processed

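The members and the lists were chosen with earlier results of these data known. The authors deposited scanner intensity values of each spot, which per the submitters' processing notes came from Agilent Feature Extraction 9.1.3.1. Local background, flags and a log10 ratio were deposited with them. That ratio did not enter the fits and served only to check the value table. They also deposited a value table. Natural log ratios were recognised by its slopes of 0.69 and -0.69 on the deposited ratio, taken as log2 red over green. The correlations were 1 on arrays 1 and 2 and -1 on arrays 3 and 4. The value table was not centred (medians -0.22, -0.05, -0.14 and -0.08). With its sign turned to AtERF4-HA over control, it served as an alternative. The sources used here do not say how the authors made it.

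From the median signals, log2 ratios were computed in limma 3.58.1 under R 4.3.3: normexp background correction with an offset of 50 on the median local background, loess within each array with control spots and outlier spots at weight 0, sign turned to AtERF4-HA over control, and spots of a probe averaged. The offset pulls the ratios of dim probes towards 0. Each probe's 4 ratios were fitted with a genotype term and a dye term (lmFit, eBayes, 2 residual degrees of freedom, prior 2.84), with Benjamini-Hochberg adjustment over 21768 kept probes and a threshold of 0.05. The 2 members measured on fewer arrays were fitted on those. Errors are the SE of this fit, taken after the dye term. The number of arrays limits the precision. On simulated data with 21723 probes, 94% of 100 probes changed by 1 on the log2 scale were recovered and 100% of those changed by 2. Of the calls, 6.73% were unchanged probes. The changes were put in after normalization, with noise drawn without regard to signal. The pull of the offset was thus left out, and these rates do not describe dim members.

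All 4 arrays lay on 1 slide and 1 scan, so neither could be tested as a batch. Text names the 12 largest rises and falls detected in both genotypes with 1 sign on all arrays, called members detected in 1 genotype, the largest rise and fall of each kind, the 5 brightest, and the 3 nearest to 0 of the 100 brightest. Because no table gives them a gene, most names other than positions are given by kind alone. Members of the dense stretch, longer names and neighbouring or overlapping pairs were named after their values were seen. Probe sequences and a genome were not used here.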

Additional observations from a re-analysis of the deposited data

Results flagged for a closer look

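Of 38 sets of 4 array values examined, 2 had an array far from the other 3, where chance alone gives about 1 in 20. At chr5:2356356-2356415, reverse, array 4 stood at -1.01 and the others between -0.68 and -0.62, a gap of 0.839 of the whole range. The fall was present on all 4 arrays. TC267341, which was among the members nearest to 0, had -0.42 on array 4 and 0.08 to 0.17 on the others, a gap of 0.847 of the range. Its fitted ratio was -0.00 ± 0.11 (limma adjusted p = 0.99). Both gaps were on array 4, which had the largest absolute ratio for 957 of 1852 members.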

How the results depend on the processing

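The number of called members, 121 as reported, was 665 with no background correction, 792 with background-subtracted signals and 788 with processed signals. Median centring gave 192, and 1052 were called with the authors' deposited value table. The cause was not tested. The 2-fold count, 7 as reported, was 29, 177, 173 and 189 with no background correction, background-subtracted signals, processed signals and the value table. Leaving out 1 array gave 5 to 437 called members and 4 to 25 at 2-fold. The value table shifted the median log2 ratio of all probes by 0.15. Of the 121, 120 were also among the 792 and 119 among the 1052, while 93 were among the 192 of median centring. The offset of 16, no filter, the stricter filter, no dye term and the brightest probe per gene left the count between 89 and 136. With no dye term the calls themselves changed: 91 of the 121 were among the 117 called, and 4 of the 31 named called members lost the call. No named member that was called changed sign. Of 31 named called members, 5 were called in every setting, 26 lost the call without array 1 and 24 without array 2. Each array is itself the pair of both genotypes, so the fitted ratios were already paired within arrays. There is 1 group of ratios, and no separate paired analysis was run. Calls of dim members seen in both genotypes moved with the background correction. With a mean log2 signal under 8, none of 483 was called as reported and 146 with background-subtracted signals. Between 8 and 9 the counts were 23 and 307 of 696, and from 11 upward 19 and 20 of 58.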
